A study of Mus musculus with 46 samples.

Results

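The livers of mice fed ad libitum (AL) were described for the genes with the brightest probes, the genes that differed most between these mice, and the sets of such genes that rose and fell together from liver to liver. The AL livers were 11 of the 46 livers on Illumina Mouse Ref8 v2.0 arrays, chosen by their titles alone, with 1 array per mouse. All 46 mice were male C57BL6/J mice aged 8 months. Beside the AL group stood 11 mice under a dietary restriction labelled 40% (DR), 12 mice given 14 ppm of rapamycin, an inhibitor of the mTOR kinase, in the food (Rapa), and 12 mice given both (Rapa+DR). Per the methods, DR mice got their food daily at a fixed afternoon hour, so amount and hour of feeding cannot be told apart. These 35 mice served here as samples in which patterns seen among AL mice were looked for a second time. Mice were killed with carbon dioxide and each RNA came from 25 mg of frozen liver. The labels give no slide, scan, cage or hour of death, and any of these cannot be told apart from differences between mice. The p-values therefore measure the spread between mice, with handling included.

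Liver is a secretory and metabolic organ whose hepatocytes fill the blood with albumin, protease inhibitors, apolipoproteins and metal carriers. Much of its other transcription follows the hour of the day through the circadian clock, the feeding state through nuclear receptors such as PPAR alpha, pulses of growth hormone through STAT5, stress through glucocorticoids, and inflammation through the acute phase response. Bulk tissue was measured, so fewer cells of a type and less RNA per cell cannot be told apart.

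The deposited values are each array's log2 signals with that array's mean subtracted and its standard deviation (SD) divided out. They were returned to a log2 scale with the mean SD of the 46 arrays, and a level below is a value on that scale, where 1 unit is roughly a change of 2 times in signal on an array of average SD and dim probes understate changes. On the AL arrays the SD removed in this way ran from 1.15 (mouse 4) over a median of 1.27 to 1.52 (mouse 11), and between 32.7% (mouse 8) and 44.2% (mouse 11) of probes stood above background. AL mouse 11 had the widest array, and mouse 3 lay farthest from the others on the first principal component. No 2 AL arrays held the same values, and their correlations over genes ran from 0.95 to 0.99. Eif2s3y, a Y-linked translation factor gene, was above background on 11 of 11 AL arrays, while the Y-linked Uty and Kdm5d were above it on 1 and 0, and Xist, which females express, on 1. Of the marker lists for other cell types, skeletal muscle had 0 of 9 genes, B and plasma cells 0 of 5, T and NK cells 1 of 11 (Ccl5) and neutrophils 1 of 8 (S100a8) above background on at least 6 AL arrays, against 14 of 17 hepatocyte genes and 9 of 11 Kupffer cell and macrophage genes.

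The brightest probes of the AL liver were those of secreted plasma proteins. Signals of different probes are not a measure of relative RNA amount, since each probe has its own efficiency, so the order is one of brightness. Of 6632 genes above background on at least 6 AL arrays, the 20 brightest held 14.1% ± 3.96 (SD, n = 11) of the summed signal, from 7.21% in mouse 11 to 19.97% in mouse 1. Serpina1b, a copy of the alpha-1 antitrypsin gene, had the brightest probe with a level from 14.48 over a median of 16.09 to 17.24 (16.12 ± 0.87, SD, n = 11). Its near-identical copies Serpina1d, Serpina1c and Serpina1e followed at 15.85, 15.83 and 15.40, and a probe for one copy may also bind RNA of another. The apolipoproteins Apoa2 (15.91 ± 0.78), Apoa1 (15.75 ± 0.68) and Apoc3 (15.57 ± 0.51), which build the plasma lipoproteins, and Apoc1 (15.34) stood among the first 10. Carriers of heme, iron, thyroid hormone and haemoglobin came next, with Hpx at 15.39, Trf at 15.31, Ttr at 15.28 and Hp at 15.14. Ambp, Ahsg and Kng1, precursors of further plasma proteins, had levels of 15.26, 15.21 and 15.15. The 5 genes of the 20 whose products act inside the cell were Gpx1, a glutathione peroxidase (15.36), the ethanol-oxidising cytochrome Cyp2e1 (15.14), the glycine methyltransferase Gnmt (15.13), the acyl-CoA binding protein gene Dbi (15.05) and the ferritin heavy chain Fth1 (14.98).

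These bright genes were not variable for their level. The SD of each of the 20 was between 0.70 (Dbi) and 1.37 (Trf) times the SD that the trend over all genes gave at that level. Their mean level fell with the SD of the array on the main scale (r = -0.99 over 11 arrays), rose with it when arrays were centred but not divided by their SD (r = 0.81) and had r = 0.38 after quantile normalization. On the scale after quantile normalization the share ran from 11.3% to 11.8%.

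Spread between AL mice grew slowly with level and was exceeded by a small set of genes. The median SD over the 6632 genes was 0.21 and the trend ran from 0.09 to 0.64. An SD of at least 2 times the trend was found for 306 genes (4.61%) and of at least 4 times for 16 genes. The 60 genes with the largest ratio, from 3.08 to 7.77 times the trend, are the variable genes below. They were chosen by this spread, so their spread and their correlations in AL mice are a description without a test. Cth and Bhmt were the last genes inside the limit at 3.09 and 3.08 times the trend, and Hr and Depp1 the first outside at 3.07 and 3.06. Of the 60, 42 were above background on all 11 arrays, and 45 kept an SD of at least 2 times the trend without the mouse farthest from the others. That farthest mouse was mouse 3 for 18 genes and mouse 11 for 11 genes.

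**Figure D1:**
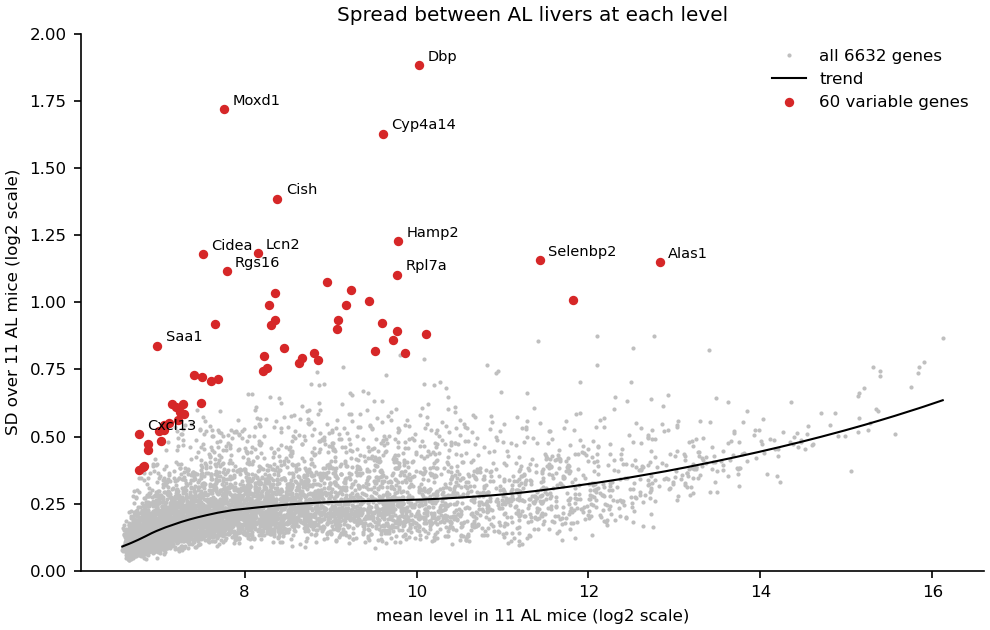
Mean level (x axis, log2 scale) against SD (y axis, log2 scale) over 11 AL mice for 6632 genes (grey), with the trend (line) and the 60 variable genes (red). Moxd1, Dbp and Cyp4a14 lie farthest above the trend, at 7.77, 7.10 and 6.23 times its SD, while the bright genes on the right lie near it.

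Moxd1, which encodes a copper monooxygenase related to dopamine beta-hydroxylase, varied most for its level. It was 11.15, 10.37 and 9.28 in mice 7, 6 and 5 and between 6.22 and 7.54 in the other 8, so that 3 mice stood apart, and it was above background in 7 of 11. Dbp, a clock output transcription factor, ran from 7.27 over 9.67 to 12.91, and its signal before scaling ran from 144.9 to 4467, a 30.8-fold range. Cyp4a14, a fatty acid omega-hydroxylase that PPAR alpha induces, ran from 6.97 over 9.53 to 11.94. Cidea, a lipid droplet protein, was 10.46 in mouse 11 and 6.49 to 8.53 in the rest. Cish, an inhibitor of cytokine and growth hormone signalling, was 10.56, 10.47 and 10.10 in mice 5, 6 and 8 and at most 8.43 in the others. Saa1, an acute phase apolipoprotein, was 8.86 and 8.27 in mice 1 and 2 and at most 7.18 elsewhere. Cxcl13, a B cell chemokine, was raised in mouse 4 alone, at 8.26 against 6.46 to 6.80.

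The same genes were often variable in the other groups too, each set against its own group's trend. Of the 60, 37 had an SD of at least 2 times the trend in DR mice (61.7%, against 3.74% of all genes), 43 in Rapa mice (71.7%, against 3.81%) and 34 in Rapa+DR mice (56.7%, against 3.80%). Their SD was lower than in AL mice for 55, 44 and 54 genes under DR, Rapa and Rapa+DR, where 61.9%, 38.7% and 58.0% of all genes had a lower SD. The choice by AL spread favours a lower SD elsewhere, so these counts are a description. Moxd1 and Lcn2 were among the genes that were wider in Rapa mice, with an SD of 1.95 against 1.72 in AL mice for Moxd1 and of 2.27 against 1.18 for Lcn2. Moxd1 was above background on 0 of 11 DR and 0 of 12 Rapa+DR arrays, with values between 6.25 and 6.42 and between 6.14 and 6.36, so its spread was not measurable under restriction. It was above background on 10 of 12 Rapa arrays and ran from 6.22 to 11.63 there. Cidea was likewise above background on 0 DR and 0 Rapa+DR arrays and on 9 of 12 Rapa arrays, where it ran from 6.31 to 9.59.

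Clustering by correlation over the 11 AL mice, with branches joined down to a mean r of 0.6, put 48 of the 60 genes into 8 groups of at least 3, named here by their most variable gene. Each pair of the 60 was then tested over the 35 DR, Rapa and Rapa+DR mice, after subtraction of group means, with a permutation test of r within groups (100000 resamples, two-sided) and Benjamini-Hochberg adjustment over 1770 pairs. Over all pairs 298 passed an adjusted p of 0.05 (16.8%). Of the 208 pairs within a group 155 passed (74.5%), each with the sign it had in AL mice, against 143 of 1562 other pairs (9.15%), 126 of them with the same sign. With Spearman's rho 132 and 101 passed. The median r over the 35 mice was 0.61 within groups and -0.02 for the other pairs. The Eef2 group supplied 131 of the 155 passing pairs, and the groups differed widely, from 10 of 10 pairs in the Rpl7a group to 0 of 6 in the Rgs16 group.

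**Figure D2:**
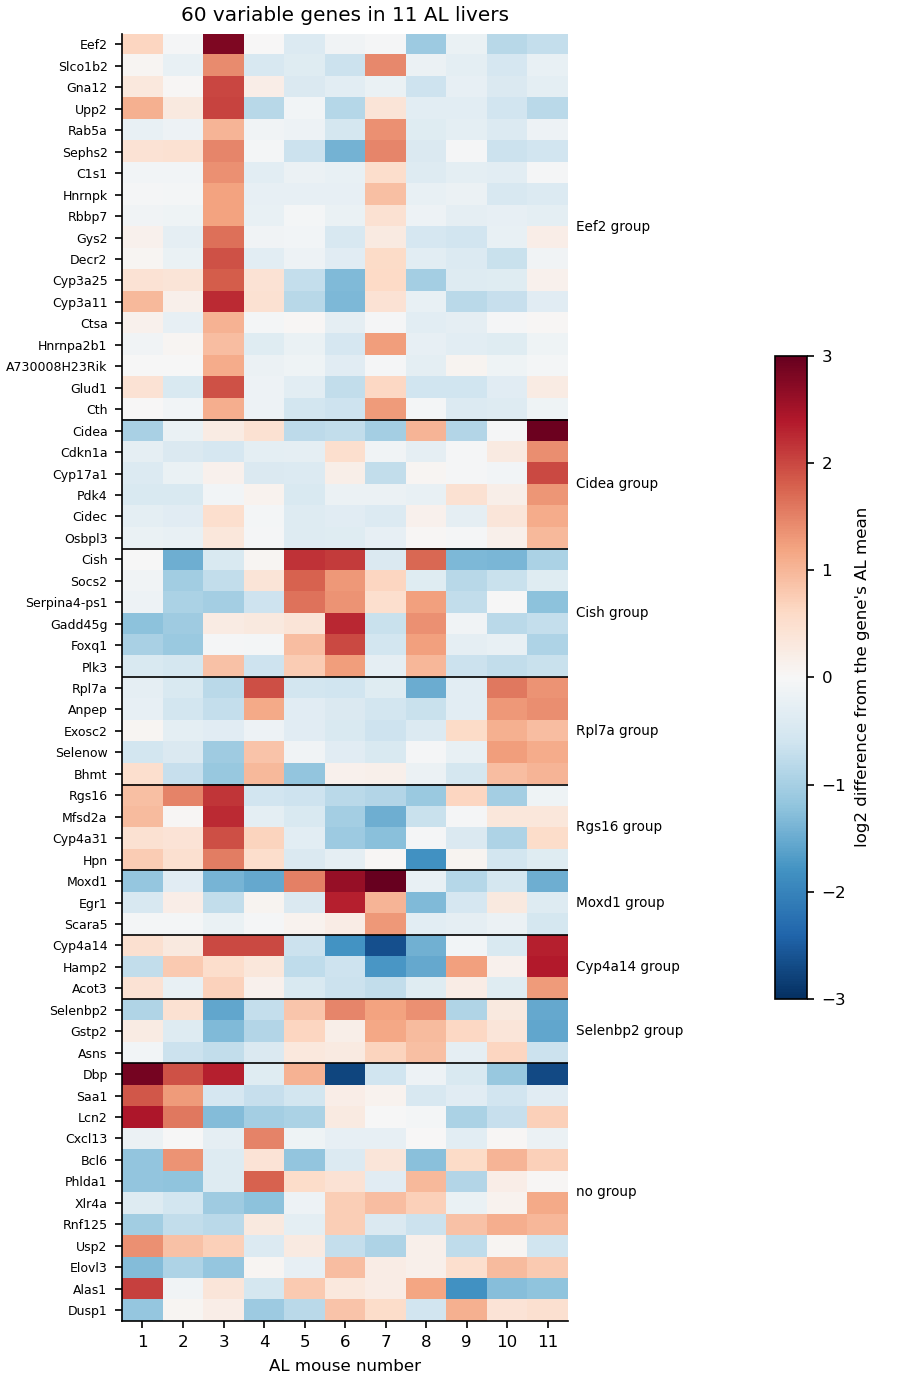
Level of each of 60 variable genes (rows, grouped) in each of 11 AL mice (columns) as the log2 difference from the gene's AL mean, red above and blue below it (colours saturate at 3). Mouse 3 stands out in the Eef2 group, mouse 11 in the Cidea group, mice 5, 6 and 8 in the Cish group and mice 4, 10 and 11 in the Rpl7a group.

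**Figure D3:**
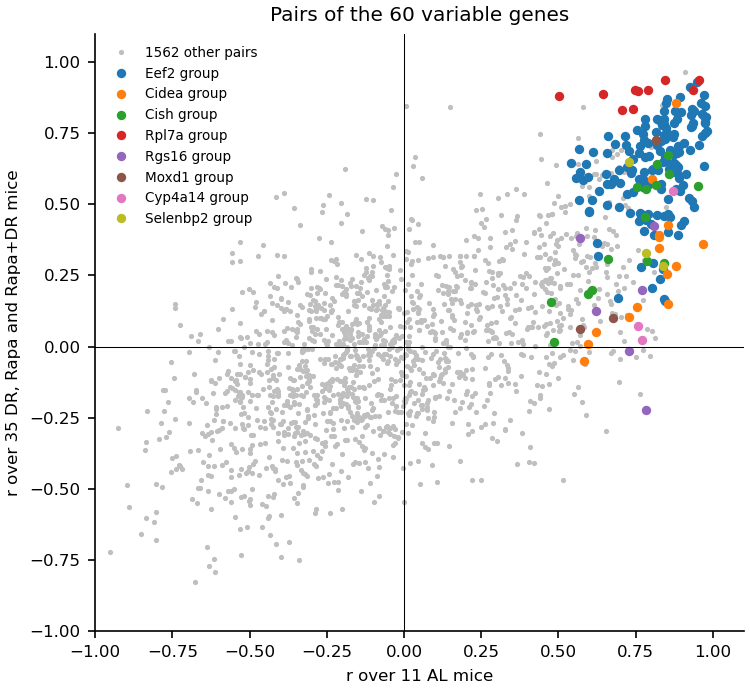
Correlation r of each pair of variable genes over 11 AL mice (x axis) and over the 35 other mice after subtraction of group means (y axis), with within-group pairs coloured. Pairs of the Eef2 and Rpl7a groups lie high on both axes, while those of the Cidea and Rgs16 groups spread toward 0 on the y axis, and the median on that axis is 0.61 for the 208 within-group and -0.02 for the 1562 other pairs.

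The largest group held 18 genes of mixed function and was highest in AL mouse 3. Its genes encode the translation elongation factor Eef2, the organic anion transporter Slco1b2, the G protein subunit Gna12, the uridine phosphorylase Upp2, the endosomal GTPase Rab5a, the selenophosphate synthetase Sephs2, the complement protease C1s1, the RNA-binding proteins Hnrnpk and Hnrnpa2b1, the histone-binding protein Rbbp7, the liver glycogen synthase Gys2, the peroxisomal reductase Decr2, the drug-metabolising cytochromes Cyp3a11 and Cyp3a25, the lysosomal protein Ctsa, the glutamate dehydrogenase Glud1, the cysteine-forming enzyme Cth, and A730008H23Rik. Eef2 was 12.04 in mouse 3, 9.88 in mouse 1 and 8.14 to 9.24 in the other 9. Cyp3a11 was 14.06 in mouse 3 and 10.48 to 12.79 elsewhere. Mouse 3 was the highest for 14 of the 18 genes, and mice 3 and 7 were the first 2 for 12 of them. The group's mean level was 9.62 in mouse 3 and 7.47 to 8.68 in the other mice. Its mean r was 0.81 over AL mice and 0.57 without mouse 3, and 0.63 over the 35 other mice (0.58, 0.60 and 0.70 in mice under DR, Rapa and Rapa+DR). In those mice 131 of 153 pairs passed.

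C1s1 and Decr2, the closest pair of this group in AL mice (r = 0.98, and 0.72 without the 2 farthest mice), had r = 0.76 and rho = 0.74 over the other 35 (permutation p = 1e-05 for both, the smallest these resamples can give, adjusted p = 0.00024 and 0.00037) and r = 0.75 without 2 mice. Further probes gave the same pattern for several members. Over AL mice Eef2's other 2 probes had r = 0.99 with the named one, Upp2's other 3 between 0.97 and 0.98, and Decr2's other probe 0.99. A second Hnrnpk probe that was above background on every AL array had r of only 0.30 with the named probe and an SD of 0.11, so the spread of Hnrnpk was seen by 1 probe alone. Of all other genes, 1031 (15.6%) had an absolute r of at least 0.7 with the group's mean in AL mice and 116 (1.75%) in the 35 other mice, 101 of them in both with the same sign. Closest in AL mice were Slc17a3, an anion transporter (r = 0.98), and Adhfe1, an alcohol dehydrogenase (r = 0.98).

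The second group rested on AL mouse 11. It held the lipid droplet genes Cidea and Cidec, the cell cycle inhibitor Cdkn1a, the steroid hydroxylase Cyp17a1, the pyruvate dehydrogenase kinase Pdk4 and the lipid-binding Osbpl3. All 6 were highest in mouse 11, where their mean was 8.82 against 6.75 to 7.34 in the other mice. Cyp17a1 was 9.67 in that mouse and 6.94 to 7.85 elsewhere, and Pdk4 was 8.39 against 6.61 to 7.52. The mean r was 0.79 over 11 mice, 0.31 without mouse 11 and 0.29 over the 35 other mice, where 4 of 15 pairs passed. In those mice Cidea was above background on 9 of 35 arrays and Cidec on 16, which limits what their pairs can show. Cidec and Osbpl3, at r = 0.97 in AL mice, had r = 0.36 and rho = 0.24 in the others (permutation p = 0.078 and 0.20, adjusted p = 0.25 and 0.48, r = 0.50 without 2 mice). Mouse 11 also had the widest array, and over 11 AL arrays the group's mean had r = 0.62 with the array SD. With the array SD regressed out the mean r of the group in AL mice was 0.70. The part of the array SD in the pattern was not tested. Most like this group were Anxa2 and Plin4, a lipid droplet coat protein gene, at r = 0.96 and 0.95, and, on the other side, Hsd3b5, a male-biased steroid dehydrogenase gene, at -0.95.

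The Cish group split the AL mice into 3 high and 8 low. Cish and Socs2 encode inhibitors of cytokine receptor signalling that growth hormone induces through STAT5, Gadd45g a growth arrest protein, Foxq1 a forkhead transcription factor and Plk3 a polo-like kinase, and Serpina4-ps1 is a serpin pseudogene. The mean level was 9.56 to 10.24 in mice 5, 6 and 8 and 7.51 to 8.44 in the rest. Gadd45g was 11.22, 10.34 and 9.35 in mice 6, 8 and 5 and at most 9.26 elsewhere, so its groups of mice were separated less than those of Cish. Socs2 was 9.43 and 8.96 in mice 5 and 6 but 7.29 in mouse 8, below 8.29 in mouse 7. The mean r was 0.74 in AL mice, at least 0.64 with any 1 mouse left out, and 0.41 in the 35 others (0.55, 0.42 and 0.16 in mice under DR, Rapa and Rapa+DR), where 7 of 15 pairs passed. Gadd45g and Foxq1, at r = 0.95 in AL mice, had r = 0.57 and rho = 0.55 in the others (permutation p = 0.00090 and 0.0010, adjusted p = 0.0083 and 0.012, r = 0.44 without 2 mice). The group's mean had r = -0.73 with the background signal of the AL array, whose part was not tested.

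Bcl6, a transcriptional repressor that growth hormone lowers in mouse liver, belonged to no group and ran against Cish. It was 10.43 in mouse 2, the mouse with the lowest Cish, and 7.90, 8.66 and 7.83 in mice 5, 6 and 8. The 2 genes had r = -0.80 in AL mice and r = -0.58 and rho = -0.59 in the 35 others (permutation p = 0.00059 and 0.00049, adjusted p = 0.0058 and 0.0067, r = -0.56 without 2 mice). Alas1, the first enzyme of heme synthesis, ran from 11.00 over 13.06 to 14.89 and had r = -0.80 with Bcl6 in AL mice and r = -0.48 and rho = -0.48 in the others (permutation p = 0.0029 and 0.0030, adjusted p = 0.021 and 0.027, r = -0.40 without 2 mice). STAT factors bind the letters TTCNNNGAA, which read the same on both strands. Promoter windows of 300 bases from RefSeq on GRCm38.p6, 250 before to 50 after a gene's start, held these letters in 8.298% of 32851 cases, and 9 of the 45 variable genes with a window had a match, some in 1 of several windows, so that the share per gene is not that per window. In the Cish group 3 of 6 genes had a window and 1, Cish, a match. The Cish and Bcl6 windows are printed 5′ to 3′ because these 2 genes moved in opposition, with matches in capitals. The Cish window is chr9:107296409-107296708 on the plus strand and the Bcl6 window, 1 of 2 for that gene, chr16:23981234-23981533 on the minus strand.
Cish: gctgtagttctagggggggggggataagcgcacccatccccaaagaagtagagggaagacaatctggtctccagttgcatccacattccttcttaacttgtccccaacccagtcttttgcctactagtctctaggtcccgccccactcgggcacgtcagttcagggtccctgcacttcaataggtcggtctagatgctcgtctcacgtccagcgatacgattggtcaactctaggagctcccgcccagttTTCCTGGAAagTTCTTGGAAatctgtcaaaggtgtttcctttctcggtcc
Bcl6: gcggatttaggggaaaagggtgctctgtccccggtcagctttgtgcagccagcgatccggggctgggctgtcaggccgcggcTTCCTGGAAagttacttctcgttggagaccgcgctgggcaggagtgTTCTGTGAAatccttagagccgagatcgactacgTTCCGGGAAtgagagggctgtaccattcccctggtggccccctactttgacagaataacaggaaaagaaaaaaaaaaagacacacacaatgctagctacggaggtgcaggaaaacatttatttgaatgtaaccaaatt
Cish had 2 matches. Bcl6 had 3 in this window, which was chosen for holding the most, and 1 in its other window. A match of letters is a description and shows no binding.

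The Rpl7a group took 1 of 2 levels in each mouse, in every group of the study. Rpl7a encodes a protein of the large ribosomal subunit, Anpep aminopeptidase N, Exosc2 a subunit of the RNA exosome, Selenow a small selenoprotein and Bhmt the enzyme that remethylates homocysteine with betaine. Rpl7a was 11.72, 11.36 and 11.13 in AL mice 4, 10 and 11 and 8.29 to 9.50 in the other 8. Anpep was 9.59, 9.75 and 9.85 in the same 3 mice and 7.75 to 8.22 in the rest. The levels of both genes therefore did not overlap between those 3 mice and the others, whereas Exosc2 was 7.15 in mouse 4, below 7.87 in mouse 9. The mean of the 5 genes was 9.67 to 9.94 in mice 4, 10 and 11 and 7.90 to 8.62 below, with a gap of 1.05. Mice 1, 8 and 9 of the DR group lay above a gap of 1.02 at 9.61 to 9.76, mice 4, 8, 9, 11 and 12 of the Rapa group above a gap of 1.26 at 9.65 to 10.02, and mice 3, 4 and 7 of the Rapa+DR group above a gap of 1.20 at 9.66 to 9.92. The gaps made up 51.6%, 63.0%, 69.4% and 65.8% of the range in AL, DR, Rapa and Rapa+DR mice.

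All 10 pairs of this group passed in the 35 other mice, where the mean r of 0.89 was above the 0.76 of the AL mice in which the group was formed. Rpl7a and Anpep had r = 0.96 in AL mice and r = 0.94 and rho = 0.73 in the others (permutation p = 1e-05 for both, the smallest these resamples can give, adjusted p = 0.00024 and 0.00037, r = 0.92 without 2 mice). Many genes moved with it: 638 (9.63%) had an absolute r of at least 0.7 with its mean in AL mice, 1023 (15.4%) in the 35 others and 377 in both with the same sign. Asgr2, a subunit of the hepatocyte asialoglycoprotein receptor, had r = 0.97 in AL mice and 0.92 in the others, and Man1b1, a mannosidase of the endoplasmic reticulum, 0.97 and 0.97. Edem2, which acts on misfolded glycoproteins, ran the other way at -0.93 and -0.87, as did Rpn2, a subunit of the oligosaccharyltransferase, at -0.90 and -0.88. The group's mean had r = 0.48 with the array SD in AL mice and 0.65 in the others. With the array SD regressed out the mean r in AL mice was 0.73, and Rpl7a and Anpep had r = 0.90 in the others (permutation, adjusted p = 0.00025). The part of the array SD was not tested. Of the Rapa+DR mice, the high mice 3, 4 and 7 had the widest arrays (SD 1.53, 1.54 and 1.58). The widest arrays of AL, DR and Rapa mice, at 1.52, 1.54 and 1.54, were also of high mice. AL mouse 4 and Rapa mouse 8, both high, had the narrowest arrays of their groups, at 1.15 and 1.12. The labels name nothing that separates the high from the low mice.

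**Figure D4:**
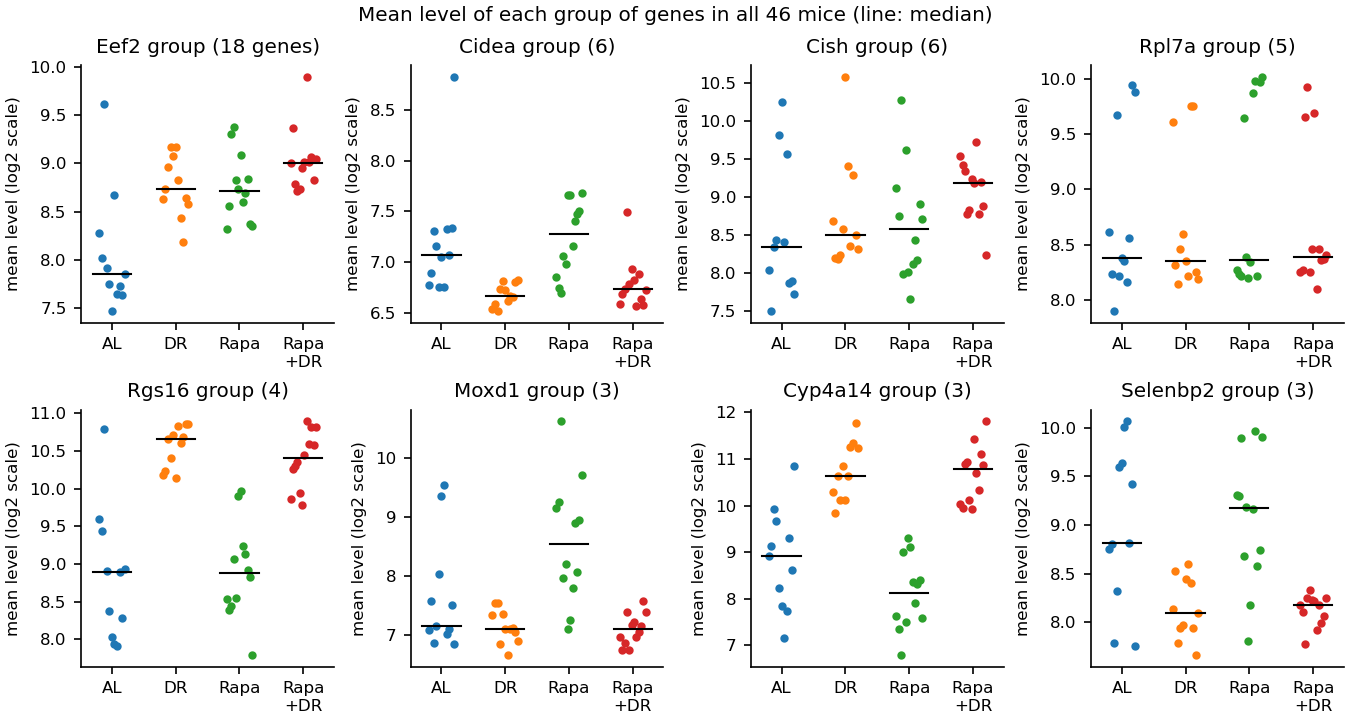
Mean level (y axis, log2 scale) of the genes of each of 8 groups in each of the 46 mice (points), with the median of each treatment group (line). The Rpl7a group shows 2 separate levels in all 4 treatments, with 3 of 11 AL, 3 of 11 DR, 5 of 12 Rapa and 3 of 12 Rapa+DR mice high, while the Eef2 and Cidea groups have 1 high AL mouse each.

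The 4 genes of the Rgs16 group were all highest in mouse 3. Rgs16 encodes a regulator of G protein signalling, Mfsd2a a transporter of lysophospholipids, Cyp4a31 an omega-hydroxylase and Hpn the membrane protease hepsin. Rgs16 was 9.93, 9.27 and 8.69 in mice 3, 2 and 1 and 6.67 to 8.44 elsewhere. The mean r was 0.71, 0.50 without mouse 3, and 0.15 in the 35 other mice, where 0 of 6 pairs passed the permutation test by r or by rho and 2 had an unadjusted p under 0.05. Mfsd2a and Cyp4a31, at r = 0.81 in AL mice, had r = 0.42 and rho = 0.36 in the others (permutation p = 0.010 and 0.037, adjusted p = 0.057 and 0.17, r = 0.27 without 2 mice). Outside the group Hpn had r = 0.85 with Eef2 in AL mice and r = 0.87 and rho = 0.68 in the others (permutation p = 1e-05, the smallest these resamples can give, and 2e-05, adjusted p = 0.00024 and 0.00055, r = 0.78 without 2 mice). Its other 2 probes had r = -0.39 and -0.41 with the named probe in AL mice, so the spread of Hpn was seen by 1 of 3 probes.

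Among the last 3 groups, of 3 genes each, 2 ran against each other in AL mice. The Cyp4a14 group held Cyp4a14, the peroxisomal acyl-CoA thioesterase Acot3 and the hepcidin gene Hamp2, and was highest in mouse 11 (10.85) and lowest in mouse 7 (7.14). The Selenbp2 group held the selenium-binding protein gene Selenbp2, the glutathione transferase Gstp2 and the asparagine synthetase Asns, and was high at 9.42 to 10.07 in mice 5, 6, 7, 8 and 10 and at 7.75 to 8.81 in the other 6. Selenbp2 was 12.91 and 12.80 in mice 6 and 8 and 9.88 and 9.90 in mice 3 and 11, where Cyp4a14 was 11.59 and 11.94. The means of these 2 groups had r = -0.96 over the 11 mice. The Moxd1 group, with the immediate early transcription factor Egr1 and the ferritin receptor Scara5, was high in mice 6 and 7 at 9.36 and 9.54 and at most 8.03 elsewhere, and its mean had r = -0.73 with that of the Cyp4a14 group and 0.64 with that of the Selenbp2 group. The Rgs16 group stood in the same opposition, with r = 0.68 with the Cyp4a14 group and -0.81 with the Selenbp2 group. Mice 5, 6, 7 and 8 had the lower range of background signal (79.9 to 81.8). So did mice 3 and 4 (80.9 and 81.1), which were low in the Selenbp2 group at 7.79 and 8.32. Mouse 10 and mice 1, 2, 9 and 11 had the upper range of background signal (88.9 to 92.9). That signal had r = -0.43 with the mean of the Moxd1 group, -0.24 with that of the Selenbp2 group and 0.39 with that of the Cyp4a14 group. Its part was not tested.

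Some pairs from these groups passed in the other mice. Cyp4a14 and Selenbp2 had r = -0.89 in AL mice and r = -0.57 and rho = -0.46 in the 35 others (permutation p = 0.0041 and 0.0097, adjusted p = 0.028 and 0.066, r = -0.45 without 2 mice), with r = -0.72 in Rapa mice, -0.21 in DR and -0.23 in Rapa+DR mice. Cyp4a14 and Acot3 had r = 0.87 in AL mice and r = 0.55 and rho = 0.61 in the others (permutation p = 2e-05 and 1e-05, the latter the smallest these resamples can give, adjusted p = 0.00039 and 0.00037, r = 0.52 without 2 mice). Cyp4a14 and its relative Cyp4a31, whose probes may bind each other's RNA, had r = 0.84 in AL mice and r = 0.85 and rho = 0.85 in the others (permutation, adjusted p = 0.00024 and 0.00037). Moxd1 and Scara5 had r = 0.81 in AL mice and r = 0.72 and rho = 0.50 in the others (permutation p = 0.00042 and 0.014, adjusted p = 0.0044 and 0.085, r = 0.59 without 2 mice), but Moxd1 was above background on 0 of the 23 DR and Rapa+DR arrays, so that the relation was measurable in Rapa mice alone (r = 0.80). Gstp2 and Asns, at r = 0.84 in AL mice, had r = 0.28 and rho = 0.33 in the others (permutation p = 0.19 and 0.074, adjusted p = 0.43 and 0.27, r = 0.25 without 2 mice).

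Many clock genes varied with Dbp among AL mice, and some did not. Dbp, its relative Tef and the deubiquitinase Usp2 are outputs of the clock, and Ciart is a repressor within it. Nfil3 competes with Dbp for the same sites. Arntl and Clock encode the activator of the clock, and the RNA of Arntl peaks at about the opposite hour to that of Dbp. Dbp was 12.91, 12.37 and 11.93 in mice 1, 3 and 2, 11.08 in mouse 5, 8.89 to 9.88 in mice 4, 7, 8, 9 and 10 and 7.27 and 7.32 in mice 6 and 11. Over the 11 mice r with Dbp was 0.93 for Ciart, 0.91 for Tef, 0.85 for Usp2 and 0.81 for Nr1d2, a nuclear receptor repressor of the clock, and -0.97 for Nfil3, -0.86 for Arntl and -0.76 for Clock. The period genes Per1 and Per2 had r = 0.70 and 0.59 and the receptor gene Nr1d1 r = 0.64. Of the 14 genes set against Dbp, 10 had an absolute r of at least 0.5, and the other 4 were Bhlhe40 (r = 0.28) and Cry2 (r = 0.15), both repressors within the clock, the nuclear receptor gene Rora (r = -0.19) and the glucocorticoid target Tsc22d3 (r = -0.07). These are a description over 11 mice on shared arrays. In Rapa mice r with Dbp was -0.84 for Nfil3, 0.85 for Tef and -0.97 for Arntl, but -0.07 for Per1 and 0.04 for Per2. In DR mice, where Dbp ran only from 12.02 to 13.10, it was -0.68 for Nfil3, -0.66 for Clock and 0.60 for Usp2. It was 0.28 for Tef, 0.15 for Ciart and -0.15 for Arntl there, and of opposite sign to AL mice for Nr1d2 (-0.55) and Per2 (-0.42). In Rapa+DR mice it was -0.90 for Nfil3, -0.96 for Clock, -0.81 for Arntl and 0.76 for Tef. However, it was 0.14 for Ciart, -0.02 for Usp2 and -0.51 for Nr1d2 in those mice. The median level of Arntl in DR mice lay under the background limit of every DR array, which limits what its r there can show. In AL mice the lowest levels of Arntl (6.44), Ciart (6.46) and Nr1d2 (6.40) lay under the lowest level above background on any AL array (6.47). That limits what their r in AL mice can show too.

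**Figure D5:**
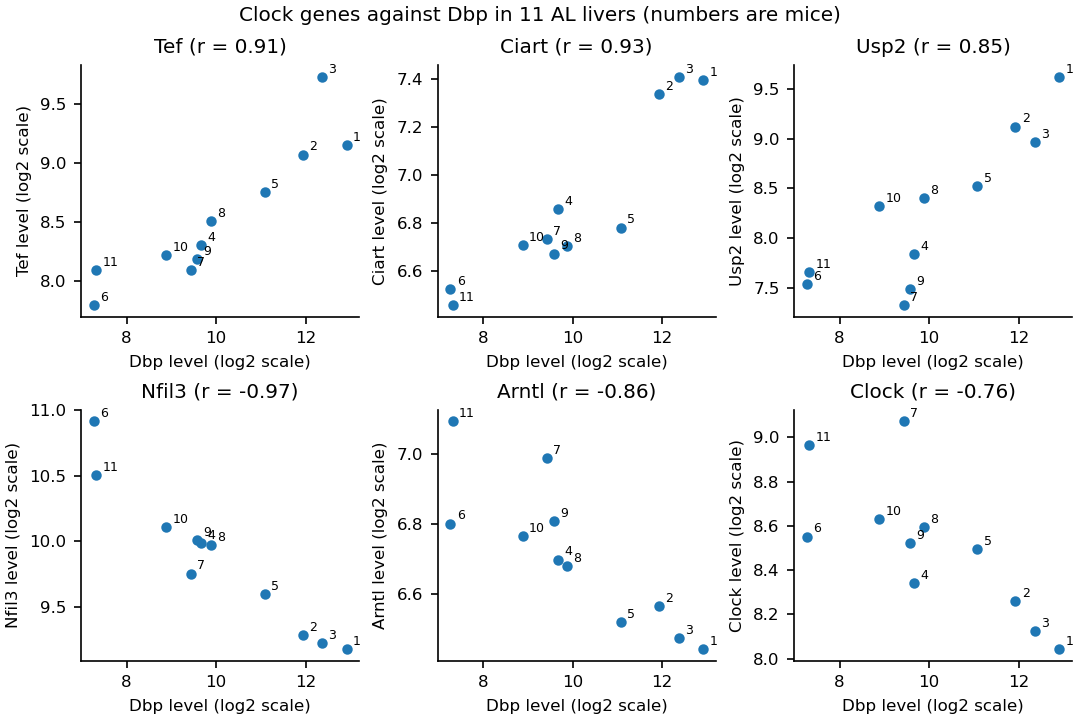
Level of 6 clock genes (y axes, log2 scale) against the level of Dbp (x axes, log2 scale) in 11 AL mice, each point a numbered mouse. Mice 1, 2 and 3 lie at high Dbp with high Tef, Ciart and Usp2 and low Nfil3, Arntl and Clock, and mice 6 and 11 at low Dbp with the lowest Tef and Ciart and the highest Nfil3, while Usp2 is lowest and Clock highest in mouse 7.

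Of the variable genes, Elovl3, a fatty acid elongase with a daily rhythm in liver, had the r farthest from 0 with Dbp. It was 8.22, 8.34 and 8.60 in mice 1, 3 and 2 and 10.45 and 10.30 in mice 6 and 11, and had r = -0.95 with it in AL mice. In the 35 others the pair had r = -0.72 and rho = -0.70 (permutation p = 1e-05, the smallest these resamples can give, and 7e-05, adjusted p = 0.00024 and 0.0014, r = -0.70 without 2 mice). Cdkn1a had r = -0.80 with Dbp in AL mice and r = -0.68 and rho = -0.68 in the others (permutation p = 2e-05 and 5e-05, adjusted p = 0.00039 and 0.0011, r = -0.61 without 2 mice). However, Cdkn1a was above background on only 21 of those 35 arrays, with 4 of 11 in DR and 6 of 12 in Rapa+DR mice. That limits what this pair can show. Dbp and Usp2 had r = 0.49 and rho = 0.38 in the others (permutation p = 0.031 and 0.038, adjusted p = 0.13 and 0.17, r = 0.46 without 2 mice). Rnf125, an E3 ubiquitin ligase gene, had r = 0.88 with Elovl3 in AL mice and r = 0.61 and rho = 0.54 in the others (permutation, adjusted p = 0.0025 and 0.014), though its second probe above background had r of only 0.34 with the named one.

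Saa1 and the iron-binding acute phase protein gene Lcn2 were high together in AL mice 1 and 2. Lcn2 was 10.57 and 9.74 there and 6.84 to 8.86 in the other 9. The pair had r = 0.91 in AL mice (0.60 without the 2 farthest mice) and r = 0.97 and rho = 0.75 in the 35 others (permutation p = 1e-05 and 0.00069, adjusted p = 0.00024 and 0.0088, r = 0.90 without 2 mice). Within DR, Rapa and Rapa+DR mice r was 0.73, 0.99 and 0.12, with Saa1 above background on 4 of 11, 7 of 12 and 1 of 12 arrays, and the highest Rapa values were 11.09 for Saa1 and 13.21 for Lcn2.

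The treated groups were then set against AL in a limma fit over 14710 probes above background on at least 1 of the 46 arrays, where a probe was called at an adjusted p under 0.05 and medians over 15% apart. The 3 comparisons share the AL mice, and DR differs from AL in the hour of feeding as well as the amount. DR against AL called 28 of the 60 variable genes (46.7%, against 17.3% of all probes), 21 higher (10.8% of all probes) and 7 lower (6.41%). Rapa against AL called 15 (25.0%, against 14.4%), 14 higher (8.6% of all probes) and 1 lower (5.81%). Rapa+DR against AL called 34 (56.7%, against 27.4%), 27 higher (17.5% of all probes) and 7 lower (9.83%). The median log2 difference of the 60 was 0.30, 0.27 and 0.44, beside values near 0 over all probes.

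Of the 18 Eef2 group genes, 11, 12 and 15 were called higher in mice under DR, Rapa and Rapa+DR and 0 lower, with 9 called higher in all 3 comparisons, which share the AL mice. Without AL mouse 3, a choice made after seeing the data, 16, 16 and 18 were higher. Eef2 itself was called in none of the 3 with that mouse and in all 3 without it. Sephs2 was 9.99 to 11.09 in DR mice against 8.35 to 11.23 in AL mice, and its log2 difference was 0.89 ± 0.22 (SE, limma adjusted p = 0.0026). The 4 Rgs16 group genes were higher in DR and Rapa+DR mice (Hpn lost both calls without AL mouse 11 and with no filter on background), with Rgs16 at 8.68 to 12.20 in DR mice and a log2 difference of 3.13 ± 0.48 (adjusted p = 3.9e-06). Cyp4a14 lay between 11.85 and 14.26 in DR mice, overlapping only the highest AL mouse, and Acot3 had a log2 difference of 2.41 ± 0.30 in DR (adjusted p = 6.4e-08). Dbp was 12.02 to 13.10 in DR mice, above all AL mice but mice 1 and 3, with a log2 difference of 2.50 ± 0.55 (adjusted p = 0.00066), while in Rapa mice it was 0.03 ± 0.54 (adjusted p = 0.98).

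Lower in DR mice were Selenbp2, at 9.14 to 10.29 (fell by 1.81 ± 0.31, adjusted p = 2.8e-05), Gstp2, Elovl3, at 7.42 to 8.15 and below all AL mice (fell by 1.85 ± 0.27, adjusted p = 1.1e-06), Cidea, Cidec, Pdk4 and Rnf125. Pdk4 and Rnf125 lost the call without AL mouse 11, Pdk4 also with no filter on background and Rnf125 with arrays centred only. Cidec was above background on only 2 of 11 DR arrays and Pdk4 on 6 of 11, which limits what the size of their differences can show. Cidea was above background on 9 of 11 AL arrays and on no array of DR or Rapa+DR mice, so only a bound is given, against the lowest level above background on each array. By it Cidea was at least 1.88-fold higher in AL than in DR mice (limma adjusted p = 0.0035) and at least 1.96-fold higher than in Rapa+DR mice (adjusted p = 0.0029). These bounds use the AL mean of 7.51, which includes mouse 11 at 10.46, while the AL median was 7.30. No bound was computed without that mouse, although Cidea was called without it too. The single gene called lower in Rapa mice was Hamp2 (fell by 1.42 ± 0.48, limma adjusted p = 0.030), which lost the call without AL mouse 11, with arrays centred but not divided by their SD (adjusted p = 0.075) and with array weights (adjusted p = 0.061), in a range of 0.014 to 0.075 over 7 alternatives. Of the Moxd1 group, Scara5 and Egr1 were called higher in Rapa mice. Scara5 lost the call with array weights (limma adjusted p = 0.067, the highest of 7 alternatives, from 0.021). Egr1, at an adjusted p of 0.049 in limma, was called in 2 of 7 alternatives (0.034 to 0.13) and lost the call without AL mouse 3 or 11. In limma 0 of the 5 Rpl7a group genes were called in each comparison, and 0 by an unmoderated analysis of variance, while 2 in DR and 1 each in Rapa and Rapa+DR had an unadjusted p under 0.05. Rpl7a itself had log2 differences of 0.75 ± 0.40, 0.82 ± 0.39 and 0.62 ± 0.39. Without AL mouse 3 Bhmt was called lower in DR and Rapa+DR mice, and without mouse 11 Exosc2 was called higher in DR mice.

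Genes of 33 lists of cell types and pathways, chosen with earlier results known, gave a wider view of the same livers. Of 25 lists with at least 3 genes above background, 10 had a mean r between their genes of at least 0.3 over AL mice, where the mean over all genes was 0.07. The hepatocyte list had 0.67, but its mean followed the array SD (r = -0.99) and its mean r was 0.10 with arrays centred only and -0.01 after quantile normalization. Clock genes were variable, with 9 of 15 at 2 or more times the trend, as were 6 of 10 glucocorticoid targets, against 4.61% of all genes. Their mean r was 0.10 and 0.04, and the clock list held genes with r of either sign with Dbp. The first principal component of the AL arrays held 34.0% of the variance and had r = 0.74 and rho = 0.81 with the array SD (permutation p = 0.0092 and 0.0038, adjusted over 9 relations 0.083 and 0.035, r = 0.62 without 2 mice).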

How the data were processed

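The labels assigned 1 array each to 46 mice. The authors deposited z score values, per the submitters' methods each array's log2 signals centred and divided by their SD. Each array's mean and SD were recovered from the steps of 0.1 signal units between its values (100% whole within 0.05 of a step), and the scores were multiplied by the mean array SD of 1.34 and given the mean log2 signal of 7.05. A further 92 columns of signals and detection p carry no sample name and were not used. Of 25697 probes 23978 carried 1 gene symbol. Background was the mode of each array's dim probes, with a normal upper tail of 0.02 as the limit. A gene was analysed if above it on at least 6 of 11 AL arrays, by its brightest probe. The spread trend was a lowess curve (fraction 0.3). Named were the 20 brightest genes, the 60 variable genes, the genes at the limit, the closest pair and closest genes of each group, and list members of largest spread. Other genes and pairs singled out were chosen after their values were seen. Members and lists were chosen with earlier results of these data known. Comparisons used limma 3.58.1 in R 4.3.3 over all 46 arrays, in place of the analysis of variance of the methods, which was an alternative. Correlations used scipy 1.17.1 and numpy 2.4.6, with permutation within groups. Scripts were tested on simulated data. The number of arrays limits the precision.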

Additional observations from a re-analysis of the deposited data

How the results depend on the processing

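The brightest 50 genes held 24.0% of the signal in place of the 14.1% of the brightest 20. With arrays brought to 1 mean but left with their own SD, 196 genes in place of 306 had at least 2 times the trend SD, the first principal component held 52.7% in place of 34.0%, and Rapa against AL called 1324 probes in place of 2119. The median r within groups, 0.82 over AL mice, was 0.64 with Spearman's rho and ran from 0.64 (without mouse 3) to 0.87 with 1 mouse left out. Gstp2 and Asns had r = -0.028 in the other mice without the Rapa mice (permutation, adjusted p = 0.96). Gadd45g and Foxq1 (r = 0.43, adjusted p = 0.19) and Moxd1 and Scara5 (r = 0.06, adjusted p = 0.92, with Moxd1 above background on 0 of the 23 arrays left) lost their permutation call there, and Mfsd2a and Cyp4a31 gained one without the DR mice (r = 0.53, adjusted p = 0.039). By the median absolute deviation 32 of the 60 genes were still among the first 60, and 40 genes gave 5 groups. With the first principal component removed the mean r was 0.54 in place of 0.81 in the Eef2 group and 0.48 in place of 0.71 in the Rgs16 group, and with Spearman's rho it was 0.65 in place of 0.76 in the Rpl7a group and 0.52 in place of 0.69 in the Moxd1 group. Without AL mice 3 or 11, added after seeing the data, DR against AL called 2668 and 2580 probes, Rapa 2388 and 2077, and Rapa+DR 4149 and 4092. The deviations of same-numbered mice of different groups had r from -0.61 to 0.67, with medians of -0.16 to 0.14 over the pairs of groups. The labels do not say whether a number stands for a shared slide or batch, and these values cannot decide it. With the replicate number as a block the 3 comparisons called 2484, 2048 and 3935 probes and 164 within-group pairs passed, and Cyp4a14 and Acot3 lost their call (r = 0.40, permutation, adjusted p = 0.072). The cause of these changes was not tested. Moxd1 and Scara5 also lost theirs with Spearman's rho (0.50, adjusted p = 0.085). Of the other values, 64 main results and 197 single ones counted as unmoved. For pairs this meant the same sign and call, and for counts, shares and mean r, which carry no call, only a loose limit. Within it the lists with a mean r of at least 0.3 ran from 7 to 15 around 10. The genes at 2 times the trend reached 408, and the mean r of the Cidea group was 0.49 with Spearman's rho in place of 0.79.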

Other observations

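The MHC class II genes, which present antigen on macrophages, dendritic cells and B cells, moved together without being among the variable genes. Of 8 on the list, 6 were above background, and their mean r was 0.77 in AL mice and 0.79, 0.77 and 0.87 in mice under DR, Rapa and Rapa+DR, against 0.07 over all genes in AL mice. H2-Ab1 ran from 8.99 over 9.75 to 10.48, Cd74, the invariant chain, from 9.18 over 9.97 to 10.47, and H2-Eb1 from 8.13 over 8.88 to 9.53. The summed signal of the list was lowest in AL mouse 2 (1813) and highest in mouse 9 (4277). The mean r stayed between 0.75 and 0.85 under the alternatives run for it. The Kupffer cell and macrophage list had a mean r of 0.40, with Clec4f from 8.58 to 9.41 and Lyz2, a lysozyme gene, from 7.27 to 9.42, and B and plasma cell markers had 0 of 5 genes above background on at least 6 arrays.

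Genes of fatty acid synthesis had a mean r of 0.44 in AL mice and 0.26, 0.45 and 0.28 in mice under DR, Rapa and Rapa+DR, and 6 of 14 had at least 2 times the trend SD. Elovl6, a fatty acid elongase, ran from 8.58 over 8.82 to 10.56, Me1, which supplies NADPH, from 7.96 over 8.69 to 9.91, and Thrsp from 10.07 over 11.51 to 12.08. Of the erythroid list 3 of 6 genes were above background. Hba-a1, an alpha globin gene, ran from 12.40 over 13.48 to 15.10, and the summed signal of the list ran from 7807 in mouse 7 to 37902 in mouse 2. Its mean had r of -0.62 with that of the Eef2 group and an absolute r of at most 0.15 with the other group means.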
